A study of Brassica napus with 6 samples.

Results

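The distal block of chromosome C06 and its A07 counterpart were described in very young leaves of Brassica napus, in 2 doubled haploid lines that are near-isogenic. The block was taken as the genes from BnaC06g045740.4DH to BnaC06g065980.4DH and the counterpart as the genes from BnaA07g035800.4DH to BnaA07g048200.4DH, both ends included. It held 2051 C06 genes and 1264 A07 genes, 3315 of the 145279 genes of the deposited table. Chromosome C06 had 6674 genes in that table and A07 had 5289. The members were selected on the difference in transcript level between the hairy and the glabrous line in these same leaves, so that difference is given below as a description, with no test.

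The hairy line, DH6-47, bears about 600 trichomes on a leaf per the labels, and DH6-110 is its glabrous partner; both descend from the parents named, Quantum/LG3260 and CN113136. Each sample was 1 leaf, the third of its plant, and each line is a single doubled haploid, so a line's other fixed differences cannot be told apart from its trichome state. The labels list 3 leaves per line and the design text gives 2. Values for leaves 1 and 3 of each line were analysed, and every comparison sets 2 hairy against 2 glabrous leaves.

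Rapeseed is an allotetraploid whose A subgenome descends from a Brassica rapa ancestor and whose C subgenome descends from a Brassica oleracea ancestor. Most genes therefore occur as homeologs, corresponding copies on an A and a C chromosome, which often match the same Arabidopsis gene. Chromosome ends of the subgenomes can pair at meiosis and exchange segments, and a line that has lost a segment in this way commonly carries further copies of its counterpart. Genomic DNA of these lines was not analysed here, so copy number was not tested.

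Levels were TPM, transcript abundances scaled for transcript length and library total and summed here over the transcripts of each gene. The whole table summed to 954250 to 962645 TPM per leaf, and the sequencing depth behind it is unknown. Arabidopsis markers of leaf mesophyll, matched by 23 copies, summed to 10305 and 13964 TPM in the hairy leaves, against 15852 and 18775 TPM in the glabrous leaves. Epidermal markers, the matches of ATML1 and CER6, summed to 122.6 and 70.6 TPM in the hairy leaves and 76.4 and 276 TPM in the glabrous leaves. All CER6 copies read 70.8 and 46.4 TPM in the hairy leaves, against 58.3 and 224 TPM in the glabrous leaves. Some of these copies are members of the 2 regions, so the epidermal sum is not independent of their choice. Seed markers were at 0 in every leaf, and root hair and flower markers summed to under 1 TPM in each. In whole leaves, fewer cells of a type and less RNA per cell cannot be told apart. Reads of near-identical copies can be placed on either copy, so the split between a C06 gene and its A07 partner is less certain than their sum.

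The C06 block was nearly empty of transcript in the hairy line, and its A07 counterpart carried about the missing amount. The C06 members summed to 911 and 837 TPM in the hairy leaves, against 13789.7 and 13765 TPM in the glabrous leaves. The hairy mean of 874 ± 52.6 TPM was 6.35% of the glabrous mean of 13778 ± 17.3 TPM (SD, n = 2 leaves each). The A07 members summed to 25296 and 24206 TPM in the hairy leaves, against 12330 and 12442 TPM in the glabrous leaves, a hairy mean 199.8% of the glabrous mean. The leaves of the lines did not overlap on either chromosome. Over both regions together the totals were 26208 and 25043 TPM in the hairy leaves and 26120 and 26207 TPM in the glabrous leaves, a hairy mean 97.9% of the glabrous mean, and here the lines did overlap.

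**Figure D1:**
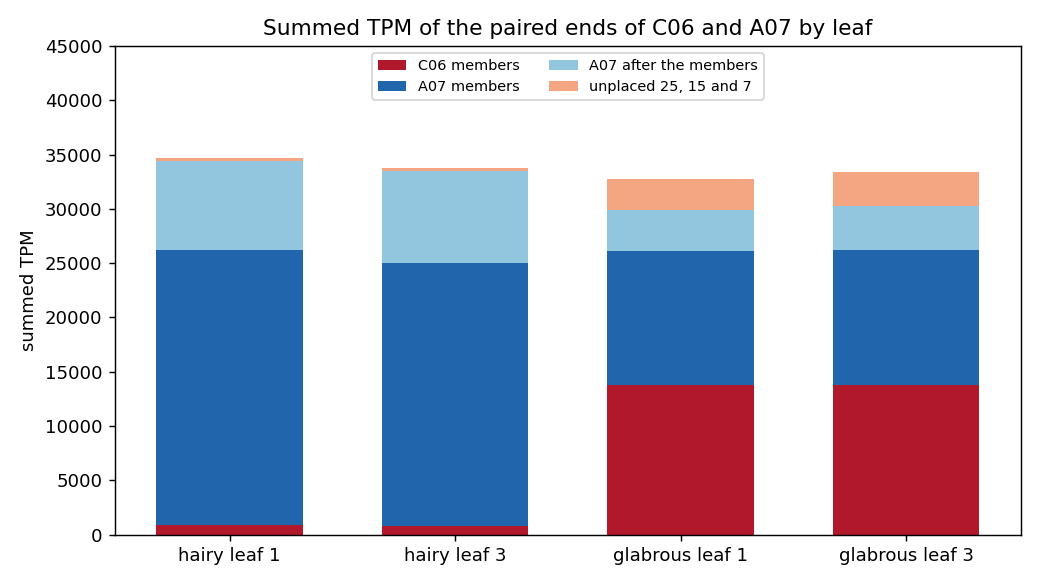
Summed TPM by leaf for the C06 members, the A07 members, the A07 genes after the last member, and 3 unplaced sequences whose genes match that A07 end. Each bar is 1 leaf, hairy leaves on the left, and the y axis is summed TPM from 0. The C06 part is 911 and 837 TPM in the hairy leaves and 13789.7 and 13765 TPM in the glabrous leaves, while the bars differ little in height.

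The inner edge on C06 lay between neighbouring expressed genes. A gene was called expressed in a line at 1 TPM or more in both of its leaves, and silent in the hairy line when it was expressed in the glabrous line and under 0.5 TPM in both hairy leaves. The last expressed gene outside, BnaC06g045720.4DH, which matches a DNA glycosylase gene, read 4.47 and 6.18 TPM in the hairy leaves, against 4.82 and 5.02 TPM in the glabrous leaves. Outward of it, BnaC06g045660.4DH (homeobox protein HB33) read 9.98 and 8.08 TPM in the hairy leaves, against 7.02 and 4.01 TPM in the glabrous leaves. BnaC06g045640.4DH (ornithine carbamoyltransferase, an enzyme of arginine synthesis) read 39.5 and 24.9 TPM in the hairy leaves, against 42.7 and 36.04 TPM in the glabrous leaves. The lines overlapped in the glycosylase and carbamoyltransferase matches, HB33 was higher in both hairy leaves, and none of the 3 was near 0. The first member, BnaC06g045740.4DH, which matches a HAD-superfamily hydrolase gene, read 0.101 and 0.0392 TPM in the hairy leaves, against 9.19 and 12.6 TPM in the glabrous leaves. Next to it, BnaC06g045760.4DH (a flavodoxin and radical SAM domain protein) read 0.108 and 0.0419 TPM in the hairy leaves, against 2.59 and 5.23 TPM in the glabrous leaves. BnaC06g045780.4DH (an erythronate-4-phosphate dehydrogenase family member) read 0 TPM in both hairy leaves, against 13.96 and 30.4 TPM in the glabrous leaves.

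Inward from this edge the first 10 expressed genes were all silent in the hairy line, and of the first 25, 19 were (76%). Outside it, none of the 24 genes expressed in the glabrous line among the nearest 25 was silent. In consecutive windows of 25 expressed genes, 0 to 4.55% were silent in the 39 windows before the edge, and 48 to 92% in the 25 windows inside it, with a median of 72%. The median difference per window, hairy minus glabrous on the log2(TPM + 1) scale, lay between -0.28 and 0.18 before the edge and between -3.52 and -1.97 inside it.

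The block ran to the last expressed C06 genes of the table. At the very end, BnaC06g065980.4DH (ATL8, a RING-type ubiquitin ligase) read 0 TPM in both hairy leaves, against 8.68 and 12.6 TPM in the glabrous leaves. BnaC06g065970.4DH (unknown protein) read 0.13 and 0 TPM in the hairy leaves, against 46.9 and 38.5 TPM in the glabrous leaves. BnaC06g065960.4DH (ribophorin I, a subunit of oligosaccharyltransferase) read 0.0921 and 0.0717 TPM in the hairy leaves, against 26.98 and 31.97 TPM in the glabrous leaves. Among the last 25 expressed members 21 were silent, or 84%, and no expressed C06 gene lay beyond them. The C06 block therefore had an inner edge within the chromosome and no outer edge in the identifier order.

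**Figure D2:**
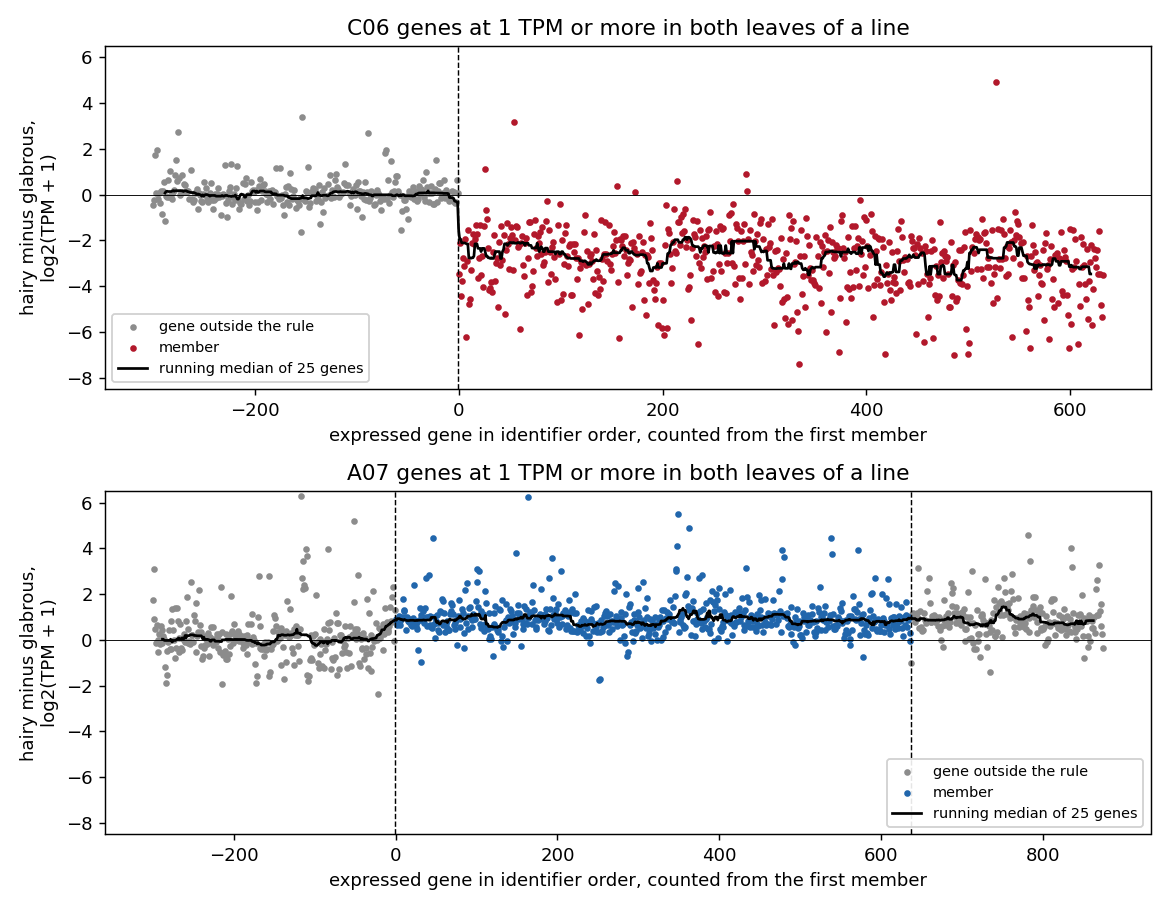
Hairy minus glabrous difference, as log2(TPM + 1), of each gene expressed in either line, in identifier order from the first member (x = 0), for C06 (top) and A07 (bottom). Points are genes, coloured where they are members, the black line is a running median of 25 genes, and dashed lines mark the ends of the rule. On C06 the median steps down at the first member. On A07 it stands above 0 before the first member is reached and stays there past the last.

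The A07 ends of the rule were not edges of the raised level. Just inside the first end, BnaA07g035800.4DH (ALDH10A8, an aldehyde dehydrogenase) read 47.5 and 37.3 TPM in the hairy leaves, against 18.7 and 25.1 TPM in the glabrous leaves. BnaA07g035810.4DH (an ADP-glucose pyrophosphorylase family member) read 29.2 and 24.5 TPM in the hairy leaves, against 11.7 and 17.5 TPM in the glabrous leaves. BnaA07g035850.4DH (a galactosyltransferase family member) read 10.1 and 7.56 TPM in the hairy leaves, against 3.50 and 7.54 TPM in the glabrous leaves. Just outside, BnaA07g035790.4DH, which matches ORA47, a jasmonate-responsive ERF regulator, read 260.5 and 207 TPM in the hairy leaves, against 39.4 and 219.9 TPM in the glabrous leaves. BnaA07g035780.4DH (a DUF581 protein) read 3.08 and 4.03 TPM in the hairy leaves, against 3.03 and 4.55 TPM in the glabrous leaves. BnaA07g035770.4DH (JAZ2, a repressor of jasmonate signalling) read 4.82 and 6.00 TPM in the hairy leaves, against 0.195 and 0.382 TPM in the glabrous leaves. Of these 6 genes only BnaA07g035770.4DH, BnaA07g035800.4DH, BnaA07g035810.4DH and BnaA07g035850.4DH had both hairy leaves above both glabrous leaves. The A07 gene with the same match as the first C06 member, AT1G75210, is BnaA07g035580.4DH; from it to the first A07 member, 11 of 12 expressed genes had the higher mean in the hairy line, and these 22 genes summed to 642 and 538 TPM in the hairy leaves, against 232 and 425 TPM in the glabrous leaves.

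The upper A07 end lay within a raised stretch. Inside it, BnaA07g048200.4DH (a GDSL-type esterase family member) read 11.02 and 10.2 TPM in the hairy leaves, against 5.66 and 12.5 TPM in the glabrous leaves. BnaA07g048190.4DH (unknown protein) read 19.7 and 26.5 TPM in the hairy leaves, against 23.1 and 25.2 TPM in the glabrous leaves. BnaA07g048180.4DH (VPS35B, a retromer subunit) read 17.6 and 9.23 TPM in the hairy leaves, against 3.94 and 8.94 TPM in the glabrous leaves. Outside it, BnaA07g048220.4DH (a GDSL-type lipase) read 55.05 and 34.5 TPM in the hairy leaves, against 42.1 and 188 TPM in the glabrous leaves. BnaA07g048230.4DH (SKP1, the adaptor of SCF ubiquitin ligases) read 131 and 181 TPM in the hairy leaves, against 88.6 and 54.1 TPM in the glabrous leaves. BnaA07g048240.4DH (a single hybrid motif protein) read 4.63 and 4.70 TPM in the hairy leaves, against 1.04 and 2.14 TPM in the glabrous leaves. The median difference per window of 25 expressed genes was 0.62 to 1.27 on the log2(TPM + 1) scale in the 25 windows inside the rule, 0.66 to 1.13 in the 9 windows after it, and above 0.5 in 1 of the 48 windows before it. The 416 A07 genes after the last member summed to 8184 and 8472 TPM in the hairy leaves, against 3799 and 4095 TPM in the glabrous leaves, and 219 of the 238 expressed had the higher mean in the hairy line.

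The Arabidopsis matches showed the same internal arrangement on both chromosomes. Along C06 they ran down Arabidopsis chromosome 1 over the 714 members to BnaC06g052880.4DH and then up it over the 1337 members from BnaC06g052890.4DH; the Spearman correlation of identifier with match order was -0.79 over 387 genes and 0.81 over 857. Along A07 the turn came between BnaA07g039430.4DH and BnaA07g039440.4DH, with 365 members before it (-0.88 over 291 genes) and 899 after it (0.93 over 702 genes). These are called the inner and outer segments below. Many Arabidopsis genes consequently had a copy in each segment of each chromosome, and 169 of the matches of expressed C06 members were held by several C06 members.

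Of the 2051 C06 members, 1549 had an Arabidopsis match, 1088 were listed at 0 in all 4 leaves, and 630 were expressed in the glabrous line. Of these 630, 449 (71.3%) were silent in the hairy line, against 3.48% of all genes expressed in the glabrous line and 2.39% of those outside both regions. Both hairy leaves read exactly 0 for 141 of them. Another 99 were neither silent nor expressed in the hairy line, and 82 were expressed in it. Every hairy leaf lay below every glabrous leaf for 617 of the 630 (97.9%, against 19.9% of all genes), a share that the choice of the block on this difference fixes. The median member kept 0.701% of its glabrous mean in the hairy line, with quartiles of 0.184 and 3.87%. The block held 449 of the 1349 genes silent in the hairy line, 33.3% of them, while the rest of C06 held 5 among 930 expressed in the glabrous line. Silence was spread over both segments: 112 of 168 members of the inner segment (66.7%) and 337 of 462 of the outer one (72.9%).

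The silent members with the highest glabrous levels came from protein degradation, photosystem II, hormone response, plastid translation, tetrapyrrole synthesis and RNA processing. BnaC06g065240.4DH matches SKP1 and read 0.24 and 0.0934 TPM in the hairy leaves, against 163 and 89.9 TPM in the glabrous leaves. BnaC06g052450.4DH matches PSBY, a small membrane protein of photosystem II, and read 0.408 and 0 TPM in the hairy leaves, against 78.3 and 107 TPM in the glabrous leaves. BnaC06g064320.4DH matches ORA47 and read 0.329 and 0 TPM in the hairy leaves, against 33.5 and 145 TPM in the glabrous leaves. In these 3 every glabrous leaf stood far above both hairy leaves, although the glabrous leaves of the ORA47 match differed widely from each other.

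BnaC06g046010.4DH matches RPS9, a ribosomal protein of the plastid, and read 0.113 and 0.176 TPM in the hairy leaves, against 105 and 68.9 TPM in the glabrous leaves. BnaC06g058360.4DH matches HEMB1, an enzyme early in chlorophyll and haem synthesis, and read 0.418 and 0.186 TPM in the hairy leaves, against 82.9 and 79.3 TPM in the glabrous leaves. BnaC06g053930.4DH matches AT5G43620, annotated as a pre-mRNA cleavage complex II protein, and read 0.19 and 0.0492 TPM in the hairy leaves, against 35.6 and 110.4 TPM in the glabrous leaves. It was the only gene of the whole table with that match, though a copy listed with another match or none would not be counted.

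The 3 C06 members with the highest glabrous levels were above the silence limit in the hairy line yet held a small part of their glabrous level. They were named after their values were seen. BnaC06g054950.4DH, a match of ribosomal protein L17 (AT1G67430), read 4.40 and 5.99 TPM in the hairy leaves, against 772 and 418 TPM in the glabrous leaves. BnaC06g058380.4DH, a match of RPL10C, another large-subunit ribosomal protein, read 2.32 and 1.46 TPM in the hairy leaves, against 632 and 375 TPM in the glabrous leaves. BnaC06g063020.4DH matches ZW9, a TRAF-like protein, and read 6.88 and 0.945 TPM in the hairy leaves, against 523 and 450.4 TPM in the glabrous leaves. The glabrous leaves differed widely in the ribosomal protein genes, leaf 1 above leaf 3, and still neither approached a hairy leaf.

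Against this background, 85 C06 members were expressed in the hairy line, 82 of them in both lines. They lay scattered: among the 633 members expressed in either line they formed 71 separate runs, 62 of a single gene, and the longest run held 4 genes. Of the 82, 23 kept under 10% of their glabrous mean and 5 had a hairy mean at or above the glabrous one. Of the 84 with an Arabidopsis match, 78 had an A07 member of the same match expressed in the hairy line. Among the 529 matches of all C06 members expressed in the glabrous line, 472 had an A07 member at any level. How many of these 472 had an A07 member expressed in the hairy line was not counted, so the count of 78 is given as a description only. Of the 85, 15 had a hairy mean at or above 50% of the glabrous mean, 5 of them in the inner segment.

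The exception with the highest level in the hairy line lay beside another in the outer segment. BnaC06g056740.4DH matches PSRP-3, a plastid-specific ribosomal protein, and read 241 and 307 TPM in the hairy leaves, against 369 and 165 TPM in the glabrous leaves. Next to it, BnaC06g056730.4DH, with an agenet and a BAH domain, the kinds found in chromatin readers, read 44.8 and 19.6 TPM in the hairy leaves, against 11.3 and 20.9 TPM in the glabrous leaves. The lines overlapped in both genes. The flanking expressed genes did not share this. On one side BnaC06g056670.4DH (an Rpb4-type RNA polymerase II subunit) read 0 TPM in both hairy leaves, against 7.94 and 6.69 TPM in the glabrous leaves. On the other side BnaC06g056790.4DH (PAN, a bZIP regulator of floral organ number) read 0.0563 and 0.225 TPM in the hairy leaves, against 3.39 and 3.27 TPM in the glabrous leaves. The A07 genes of the same matches in the outer segment overlapped between the lines. BnaA07g041760.4DH (PSRP-3) read 14.7 and 25.9 TPM in the hairy leaves, against 53.1 and 15.7 TPM in the glabrous leaves. BnaA07g041740.4DH (agenet) read 7.94 and 2.30 TPM in the hairy leaves, against 5.93 and 10.1 TPM in the glabrous leaves. In the inner segment the A07 agenet copy BnaA07g038590.4DH stood wholly higher in the hairy line, with 69.5 and 36.03 TPM in the hairy leaves, against 15.7 and 24.6 TPM in the glabrous leaves. The inner PSRP-3 copy BnaA07g038570.4DH overlapped between the lines, with 87.2 and 119.7 TPM in the hairy leaves, against 119.98 and 44.1 TPM in the glabrous leaves.

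Several exceptions were higher in the hairy line. BnaC06g063510.4DH, which has no Arabidopsis match, read 34.6 and 28.99 TPM in the hairy leaves, against 0.0559 and 0.0821 TPM in the glabrous leaves, although it lies between matches of the sulfotransferase genes SOT18 and SOT16 that read under 0.5 TPM in both hairy leaves. BnaC06g047930.4DH, a match of AT1G72890, a TIR-NBS gene of the family of intracellular immune receptors, read 13.5 and 20.1 TPM in the hairy leaves, against 1.40 and 0.559 TPM in the glabrous leaves. An A07 gene of the same match, BnaA07g036810.4DH, likewise read 26.3 and 27.3 TPM in the hairy leaves, against 0.343 and 0.189 TPM in the glabrous leaves. Other A07 members with this match differed less. BnaA07g045690.4DH read 5.02 and 2.74 TPM in the hairy leaves, against 1.67 and 1.14 TPM in the glabrous leaves, and BnaA07g045710.4DH read 0 TPM in every leaf. BnaC06g046650.4DH, of the PLC-like phosphodiesterase family, read 1.73 and 1.88 TPM in the hairy leaves, against 0.193 and 0.377 TPM in the glabrous leaves. BnaC06g054380.4DH, of the MATE efflux family, read 4.40 and 4.78 TPM in the hairy leaves, against 3.36 and 2.12 TPM in the glabrous leaves. BnaC06g052400.4DH, a pectate lyase family member, read 6.96 and 6.10 TPM in the hairy leaves, against 4.69 and 4.78 TPM in the glabrous leaves. In all 5 of these C06 genes both hairy leaves lay above both glabrous leaves. BnaC06g052990.4DH, a match of 4CL3, a 4-coumarate:CoA ligase of flavonoid synthesis, read 6.32 and 7.67 TPM in the hairy leaves, against 5.33 and 7.63 TPM in the glabrous leaves, with the lines overlapping.

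Other expressed members sat well below their glabrous level. BnaC06g052620.4DH, a second copy of ribosomal protein L17 on C06, read 108 and 79.6 TPM in the hairy leaves, against 458 and 235 TPM in the glabrous leaves. BnaC06g048400.4DH (RPSAA, a small-subunit ribosomal protein) read 19.4 and 31.2 TPM in the hairy leaves, against 383 and 230.1 TPM in the glabrous leaves. BnaC06g052550.4DH (VIM1, which helps maintain DNA methylation) read 14.3 and 11.3 TPM in the hairy leaves, against 47.1 and 48.8 TPM in the glabrous leaves. BnaC06g056140.4DH, a thioesterase family gene, read 10.4 and 12 TPM in the hairy leaves, against 22.7 and 10.2 TPM in the glabrous leaves, and its lines overlapped. Residual C06 signal was compared with the A07 partner in the hairy line: its median was 1.72% of the partner's level over 42 pairs of the inner segment and 0.401% over 251 pairs of the outer segment, and 9 and 21 pairs reached 10%. The part played in this residue by reads of the A07 copy placed on C06 was not tested.

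**Figure D3:**
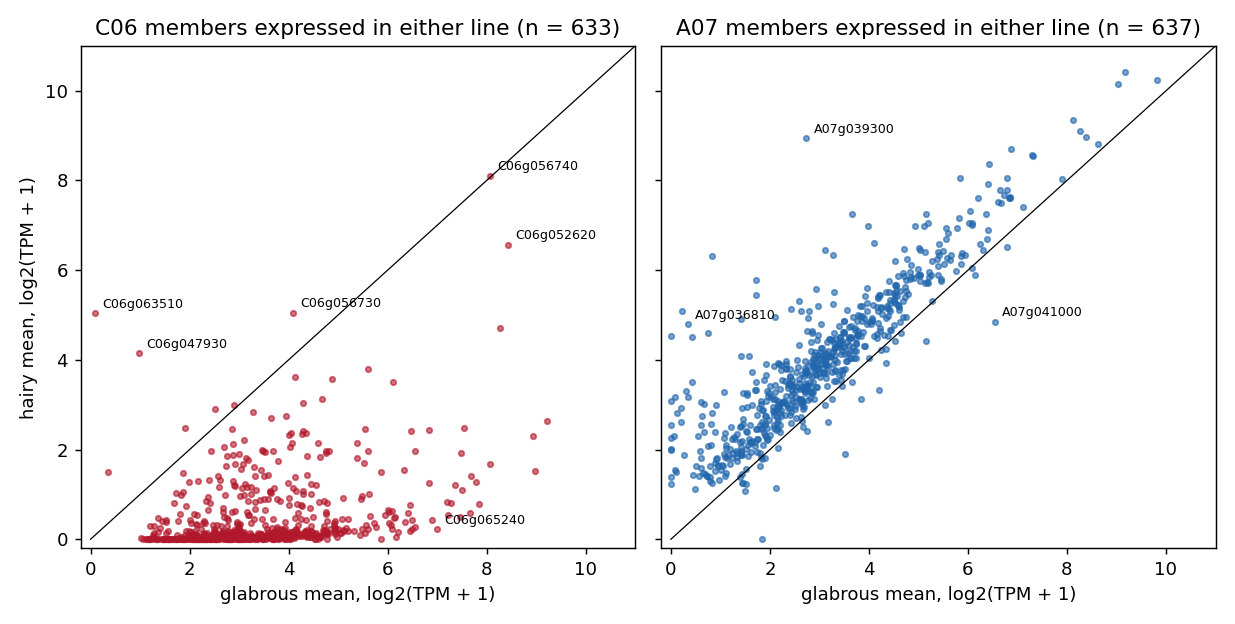
Mean level of the members expressed in either line, hairy on the y axis and glabrous on the x axis, as log2(TPM + 1), for 633 C06 members (left) and 637 A07 members (right). Each point is a gene, and the diagonal marks equal levels. Most C06 points lie along the bottom, with the labelled exceptions near or above the diagonal, and most A07 points lie in a band above it.

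**Figure D4:**
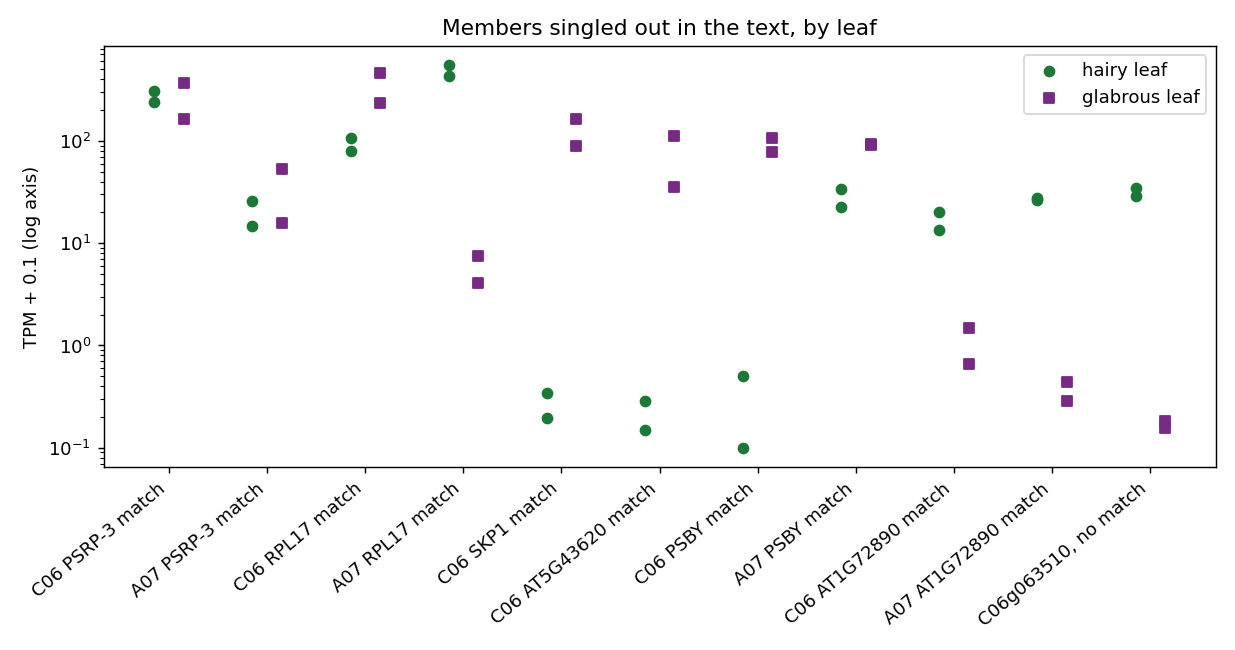
TPM of members singled out in the text in each leaf, on a log axis after adding 0.1 TPM. Circles are the 2 hairy leaves and squares the 2 glabrous leaves, hairy on the left of each gene. The PSRP-3 copies overlap between the lines, and the SKP1, AT5G43620 and PSBY copies on C06 are near 0 in the hairy leaves. The AT1G72890 copies shown and C06g063510 are high in the hairy leaves.

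The A07 members were expressed in greater number and at a higher level in the hairy line. Of 1264 members, 636 were expressed in the hairy line and 537 in the glabrous line, and 100 were expressed in the hairy line alone. Among the 537, the median hairy mean was 189% of the glabrous mean, with quartiles of 152 and 238%. Both hairy leaves lay above both glabrous leaves for 378 of them (70.4%, against 17.4% of all genes expressed in the glabrous line), and 511 of the 536 expressed in both lines had the higher mean in the hairy line. The median was 194% in the inner and 188% in the outer segment.

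The 6 A07 members furthest above their glabrous level were BnaA07g036810.4DH, given above, and the following. BnaA07g039300.4DH, a match of ribosomal protein L17, read 426 and 551 TPM in the hairy leaves, against 7.37 and 3.97 TPM in the glabrous leaves. Its C06 counterpart in the inner segment, BnaC06g052620.4DH, stood at 347 TPM on average in the glabrous line. The 4 members with this match together read 1803 and 2118 TPM in the hairy leaves, against 1997 and 1055 TPM in the glabrous leaves. Matches of GSTU12, a glutathione S-transferase, stood side by side. BnaA07g043054.4DH read 55.2 and 101 TPM in the hairy leaves, against 1.33 and 0.218 TPM in the glabrous leaves. BnaA07g043052.4DH read 15.7 and 28.1 TPM in the hairy leaves, against 0.678 and 0 TPM in the glabrous leaves. BnaA07g043320.4DH, a matrix metalloproteinase, read 32.9 and 33.4 TPM in the hairy leaves, against 0.187 and 0.137 TPM in the glabrous leaves. BnaA07g046340.4DH matches SARD1, an activator of salicylate synthesis genes, and read 28.3 and 15.7 TPM in the hairy leaves, against 0 TPM in both glabrous leaves. None of these genes had an overlap between the lines.

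Few A07 members were lower in the hairy line. BnaA07g041000.4DH, a match of PSBY, read 22.4 and 33.5 TPM in the hairy leaves, against 94.1 and 90.5 TPM in the glabrous leaves. BnaA07g040980.4DH (unknown protein) read 0 TPM in both hairy leaves, against 1.40 and 3.71 TPM in the glabrous leaves. BnaA07g041620.4DH (a zinc knuckle protein) read 0 TPM in both hairy leaves, against 0.283 and 5.68 TPM in the glabrous leaves, with glabrous leaves that differed widely. Over all A07 members expressed in the glabrous line, 4 of 537 (0.745%) had every hairy leaf below every glabrous leaf. Of all genes expressed in the glabrous line, 19.9% did.

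Pair sums asked how far the A07 copy made up for the C06 copy. In 509 cases an Arabidopsis match was held by a single C06 and a single A07 member, and in 300 of these pairs the C06 member was expressed in the glabrous line; the other 330 expressed C06 members were in no such pair. A sum was called made up when its hairy mean lay within 1.5-fold of its glabrous mean, short when it was lower than that with no overlap between leaves, and in excess when it was higher with no overlap. Of the 300, 213 (71.0%) were made up, 44 (14.7%) short, 24 (8%) in excess and 19 in between. Among 365 pairs of C06 and A07 genes before the regions, the background shares were 75.9% made up, 7.4% short and 11.8% in excess. The median ratio of the sum, hairy over glabrous, was 0.909, with quartiles of 0.732 and 1.13, and the A07 member alone had a median ratio of 1.89 over 287 pairs. The lines differ in these sums partly through the same C06 values that chose the block, so the shares are a description.

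The C06 member supplied a median of 0.60 and 0.259% of the pair sum in the hairy leaves, against 52.8 and 50.9% in the glabrous leaves. In the pairs before the regions the medians were 58.3 and 57.0% in the hairy leaves and 55.8 and 56.8% in the glabrous leaves. The sum varied with this share. Where C06 supplied 25 to 50% of the glabrous sum, the median ratio of the sum was 1.05 over 130 pairs and 3 were short. At 50 to 75% it was 0.839 over 135 pairs and 25 were short, and at 75% or more it was 0.464 over 27 pairs and 16 were short. The A07 member's own ratio was 1.81, 1.99 and 2.49 in these classes, over the 130, 130 and 19 pairs with its glabrous mean at 1 TPM or more. Its glabrous level enters both the share and this ratio, so part of that rise is built in. With the share from glabrous leaf 1 and the ratio against leaf 3, the medians were 1.63, 1.62 and 2.02. With the leaves exchanged they were 2.25, 2.52 and 4.21. Since the block was chosen for C06 levels near 0 in the hairy line, a lower sum at a higher C06 share follows in part from that choice, and these values are a description.

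**Figure D5:**
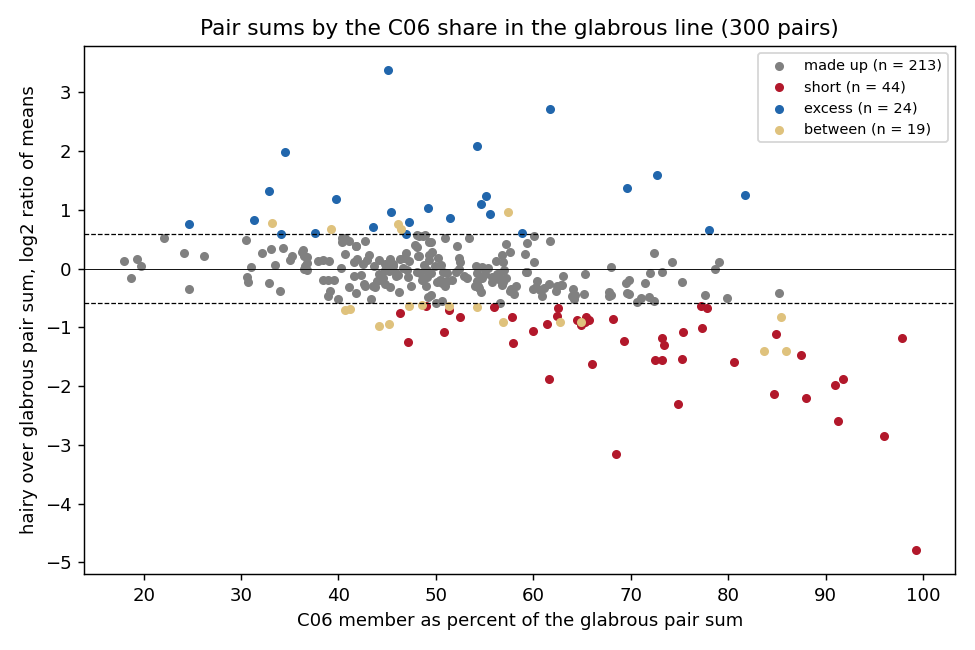
Ratio of the pair sum, hairy over glabrous, on a log2 scale, against the percent of the glabrous sum that the C06 member supplied, for 300 pairs. Points are pairs coloured by class, and dashed lines mark 1.5-fold either way. Short pairs gather at the right, where C06 was the main copy: 16 of the 27 pairs with a C06 share of 75% or more were short.

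The pairs with the lowest ratio, among 271 with a glabrous sum of at least 5 TPM, were ones in which C06 was the main copy. The AT5G26000 pair (TGG1, a myrosinase that cleaves glucosinolates) summed to 1.10 and 1.31 TPM in the hairy leaves, against 2.94 and 18.5 TPM in the glabrous leaves, with a C06 share of 68.5% in the glabrous line. An F-box pair (AT1G25150) summed to 1.13 and 0.726 TPM in the hairy leaves, against 8.67 and 4.74 TPM in the glabrous leaves. The pair of PS2, a phosphate starvation-induced phosphatase, summed to 1.26 and 0.844 TPM in the hairy leaves, against 5.99 and 6.61 TPM in the glabrous leaves. Their ratios were 0.113, 0.138 and 0.167. Summed over every copy in the table, the F-box match stayed short. PS2 over its 4 copies read 49.7 and 28.4 TPM in the hairy leaves, against 28.3 and 24.4 TPM in the glabrous leaves, which counted as made up with the hairy mean the higher. TGG1 over its 31 copies read 660.4 and 615 TPM in the hairy leaves, against 434 and 3079 TPM in the glabrous leaves, which overlapped. The pair of HIPP20, a heavy metal-binding protein, summed to 1.27 and 1.48 TPM in the hairy leaves, against 4.74 and 8.81 TPM in the glabrous leaves. The pair of YSL7, a metal-chelate transporter of the Yellow Stripe-like family, summed to 1.24 and 1.55 TPM in the hairy leaves, against 4.12 and 8.70 TPM in the glabrous leaves. An oxygenase pair (AT1G68080) summed to 2.33 and 0.848 TPM in the hairy leaves, against 3.96 and 9.92 TPM in the glabrous leaves. The last 3 were short over all copies as well. Apart from the TGG1 pair, the C06 share of the glabrous sum ran from 74.9 to 95.9%.

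The 6 pairs with a ratio nearest 1 were taken from the same 271 pairs. Of these 6, UBC1, a ubiquitin-conjugating enzyme, summed to 60.3 and 56.97 TPM in the hairy leaves, against 58.6 and 57.7 TPM in the glabrous leaves. Its A07 member read 59.97 and 56.7 TPM in the hairy leaves, against 30.9 and 32.7 TPM in the glabrous leaves. Its C06 member had 0.365 and 0.284 TPM in the hairy leaves, against 27.6 and 25.03 TPM in the glabrous leaves. ACR4, an ACT-domain protein, summed to 38.5 and 34.1 TPM in the hairy leaves, against 36.9 and 35.8 TPM in the glabrous leaves. A PP2A catalytic subunit summed to 21.1 and 19.5 TPM in the hairy leaves, against 17.04 and 23.3 TPM in the glabrous leaves. An RNA-binding protein (AT1G70200) summed to 118 and 90.1 TPM in the hairy leaves, against 94.9 and 113 TPM in the glabrous leaves. In each of these sums the lines overlapped. A 2-hydroxyacid dehydrogenase (AT1G72190) summed to 14.5 and 10.7 TPM in the hairy leaves, against 9.78 and 15.5 TPM in the glabrous leaves. VPS35B summed to 17.7 and 9.23 TPM in the hairy leaves, against 8.57 and 18.5 TPM in the glabrous leaves.

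Among the same 271 pairs, those with the highest ratio had an A07 member well above what the C06 copy had supplied. PEPR1, a receptor for plant elicitor peptides, summed to 42.3 and 18.7 TPM in the hairy leaves, against 5.69 and 8.74 TPM in the glabrous leaves. Its A07 member read 41.7 and 18.6 TPM in the hairy leaves, against 1.96 and 4.65 TPM in the glabrous leaves. A MYB-like factor (AT1G70000) summed to 105 and 89.7 TPM in the hairy leaves, against 20.3 and 28.9 TPM in the glabrous leaves. A DUF220 protein (AT1G70480) summed to 35.9 and 38.6 TPM in the hairy leaves, against 11.4 and 17.2 TPM in the glabrous leaves. The ratios were 4.23, 3.97 and 2.60, and the lines did not overlap in any of the 3.

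Members were next read by function, from lists of Arabidopsis genes whose copies were summed over both regions. Of all genes expressed in the glabrous line, 3.48% were silent and 17.4% lay wholly higher in the hairy line. Within the regions, 71.3% of C06 members expressed in the glabrous line were silent. Of the A07 members expressed in it, 70.4% lay wholly higher in the hairy line. Of all 472 functions summed over both regions, 315 (66.7%) were made up, 73 were short and 48 were in excess. A list count near these regional shares is therefore not particular to its function. The silence limit is a fixed TPM value. A C06 copy with a high glabrous level can lie above it while keeping a small part of that level. A low count of silent copies is thus not by itself a sign that a list kept its C06 expression. In the trichome and epidermis list, 3 of 4 expressed C06 copies were silent, and 3 of 5 expressed A07 copies lay wholly higher in the hairy line. MYBL2 is an R3 MYB repressor of anthocyanin genes, and its excess suppresses trichomes in Arabidopsis. Its C06 copy BnaC06g060100.4DH read 0.13 and 0 TPM in the hairy leaves, against 15.3 and 16.95 TPM in the glabrous leaves. Its A07 copy BnaA07g044150.4DH read 12.6 and 15.6 TPM in the hairy leaves, against 3.34 and 2.28 TPM in the glabrous leaves. The sum, 12.7 and 15.6 TPM in the hairy leaves, against 18.6 and 19.2 TPM in the glabrous leaves, was within the limits for made up, with both hairy leaves below both glabrous leaves. The hairy line drew it from A07, and the glabrous line mostly from C06.

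HDG11, a homeodomain gene that limits trichome branching in Arabidopsis, had a copy in every segment. Its sum over the 4 members was 12.8 and 8.82 TPM in the hairy leaves, against 8.70 and 26.3 TPM in the glabrous leaves, with an overlap between the lines, and over all copies in the table it counted as made up. CER6, which elongates very-long-chain fatty acids for cuticular wax, summed to 9.74 and 13.8 TPM in the hairy leaves, against 11.97 and 32.01 TPM in the glabrous leaves, also with an overlap. BnaA07g040060.4DH (MYB90, an activator of anthocyanin genes) read 5.16 and 4.82 TPM in the hairy leaves, against 2.97 and 2.53 TPM in the glabrous leaves. Its C06 copies were low in both lines. BnaC06g053800.4DH read 0 TPM in both hairy leaves, against 1.15 and 0.845 TPM in the glabrous leaves, and the other read 0 TPM in both hairy leaves, against 0 and 0.271 TPM in the glabrous leaves.

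Of 4 jasmonate functions with a sum, 3 were in excess and 1 was made up. JAZ proteins repress jasmonate responses and are themselves induced by jasmonate. JAZ6 summed to 149.9 and 151 TPM in the hairy leaves, against 60.9 and 65.5 TPM in the glabrous leaves. JAZ2 summed to 117 and 133 TPM in the hairy leaves, against 56.3 and 52.8 TPM in the glabrous leaves. JAZ9 summed to 111 and 105 TPM in the hairy leaves, against 44.1 and 69.96 TPM in the glabrous leaves. All 3 were in excess. The A07 copy of JAZ6, BnaA07g045390.4DH, read 149 and 151 TPM in the hairy leaves, against 8.94 and 14.1 TPM in the glabrous leaves. The A07 copy of JAZ2, BnaA07g047350.4DH, read 117 and 133 TPM in the hairy leaves, against 31.8 and 26.8 TPM in the glabrous leaves. Their C06 copies were near 0 in the hairy line. BnaC06g061880.4DH (JAZ6) read 0.514 and 0.0667 TPM in the hairy leaves, against 51.9 and 51.3 TPM in the glabrous leaves. BnaC06g064340.4DH (JAZ2) read 0 TPM in both hairy leaves, against 23.6 and 22.7 TPM in the glabrous leaves. Summed over every copy in the table these genes were likewise in excess. LOX6, a lipoxygenase, summed to 18.04 and 8.67 TPM in the hairy leaves, against 5.94 and 14.05 TPM in the glabrous leaves, which counted as made up. All 5 expressed A07 copies of the list had no overlap and were higher in the hairy line, and 1 of 5 expressed C06 copies was silent. The C06 copy of JAZ6 missed the silence limit only through its 0.514 TPM in hairy leaf 1.

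Both expressed C06 copies of the glucosinolate list were silent, and 1 of 2 expressed A07 copies lay wholly higher in the hairy line; in the defence and salicylate list these counts were 1 of 2 and 2 of 3. SOT16, a sulfotransferase of glucosinolate synthesis, summed to 98.8 and 79.3 TPM in the hairy leaves, against 36.7 and 83.8 TPM in the glabrous leaves. SOT18, another, summed to 26.4 and 26.6 TPM in the hairy leaves, against 8.93 and 65.7 TPM in the glabrous leaves. Both counted as made up, with glabrous leaves that differed widely, and SOT18 lay in between once all copies of the table were summed. ICS1, the isochorismate synthase of salicylate synthesis, summed to 12.1 and 7.37 TPM in the hairy leaves, against 5.82 and 13.1 TPM in the glabrous leaves. SARD1 had no C06 copy expressed in the glabrous line, and its second A07 copy BnaA07g036350.4DH read 6.03 and 4.31 TPM in the hairy leaves, against 0.122 and 0.179 TPM in the glabrous leaves.

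In the list of ethylene, auxin, gibberellin and abscisic acid genes all 5 expressed C06 copies were silent and 2 of 5 expressed A07 copies lay wholly higher in the hairy line. PIN3, an auxin efflux carrier, was short, with 41.4 and 25.9 TPM in the hairy leaves, against 42.9 and 79.8 TPM in the glabrous leaves. Of its A07 copies, BnaA07g037570.4DH read 17.7 and 10.8 TPM in the hairy leaves, against 11.7 and 27.1 TPM in the glabrous leaves. The other, BnaA07g044060.4DH, read 23.2 and 14.7 TPM in the hairy leaves, against 11.3 and 16.97 TPM in the glabrous leaves. Both A07 copies overlapped between the lines. ETR1, an ethylene receptor, was made up with 10.9 and 7.43 TPM in the hairy leaves, against 7.02 and 17.9 TPM in the glabrous leaves. HAB1, a phosphatase that restrains abscisic acid signalling, lay in between with 22.8 and 13.4 TPM in the hairy leaves, against 12.9 and 57.2 TPM in the glabrous leaves. The sums of ETR1 and HAB1 overlapped between the lines.

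Of 5 photosynthesis and photorespiration sums 2 were made up, 2 were short and 1 lay in between. Of 8 expressed C06 copies 4 were silent, and 0 of 7 expressed A07 copies lay wholly higher in the hairy line. PSBY, over 4 members, summed to 117 and 121 TPM in the hairy leaves, against 287 and 308 TPM in the glabrous leaves, and was short. CHLP, the geranylgeranyl reductase of chlorophyll and tocopherol synthesis, summed to 304 and 222 TPM in the hairy leaves, against 306 and 579.6 TPM in the glabrous leaves, and was short. Its A07 copy BnaA07g046990.4DH read 303 and 221 TPM in the hairy leaves, against 149 and 327 TPM in the glabrous leaves. HPR1, a peroxisomal enzyme of photorespiration, was made up with 118 and 132 TPM in the hairy leaves, against 62.9 and 202 TPM in the glabrous leaves. LQY1, a thylakoid zinc finger protein, was made up with 42.95 and 60.2 TPM in the hairy leaves, against 74.8 and 49.3 TPM in the glabrous leaves. GGT2, a glutamate:glyoxylate aminotransferase, lay in between with 10.01 and 3.29 TPM in the hairy leaves, against 3.94 and 20.98 TPM in the glabrous leaves. PETE1, a plastocyanin that carries electrons to photosystem I, had no A07 member, and its C06 copy BnaC06g065420.4DH read 0.113 and 0.176 TPM in the hairy leaves, against 41.9 and 25.5 TPM in the glabrous leaves. An A07 gene just past the rule, BnaA07g048410.4DH, matched it too and read 63.6 and 101 TPM in the hairy leaves, against 85.6 and 45.04 TPM in the glabrous leaves. These are its 2 copies in the table, and their sum was made up, with 63.7 and 102 TPM in the hairy leaves, against 127 and 70.5 TPM in the glabrous leaves. The mesophyll markers were lower in both hairy leaves than in either glabrous leaf, as given above, and their part in these sums was not tested.

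Of 5 sums of ribosomal protein genes of the cytosol, 4 were made up and 1 was in excess. Of 10 expressed C06 copies 2 were silent and all 9 expressed A07 copies lay wholly higher in the hairy line. The expressed C06 copies that were not silent kept very different parts of their glabrous level. The smallest part was in BnaC06g059530.4DH (RPL27AC), with a hairy mean of 0.725 TPM against a glabrous mean of 229.7 TPM. The largest was in BnaC06g052620.4DH (RPL17B), with a hairy mean of 93.6 TPM against a glabrous mean of 346.7 TPM. RPL34B summed to 633 and 798 TPM in the hairy leaves, against 805 and 404 TPM in the glabrous leaves. RPL27AC summed to 569.6 and 759 TPM in the hairy leaves, against 968 and 426 TPM in the glabrous leaves. RPSAA summed to 895 and 998 TPM in the hairy leaves, against 1035 and 665 TPM in the glabrous leaves. All 3 were made up, with overlap between the lines. BnaA07g040720.4DH (RPL17B), the most abundant of these A07 copies, read 1265 and 1481 TPM in the hairy leaves, against 759 and 399 TPM in the glabrous leaves. RPL6C was in excess, with 38.6 and 47.3 TPM in the hairy leaves, against 32.96 and 23.8 TPM in the glabrous leaves.

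Growth, wall and metabolism genes came in every class. Silent members made up 3 of 4 expressed C06 copies of the wall and cytoskeleton list, 2 of 3 of the meristem list, 4 of 6 of the metabolism and transport list and 1 of 2 of the cell cycle list. Their A07 copies lay wholly higher in the hairy line in 2 of 4, 2 of 3, 4 of 5 and 1 of 1 expressed. TUB1, a beta-tubulin, was in excess with 72.1 and 73.4 TPM in the hairy leaves, against 41.6 and 42.5 TPM in the glabrous leaves. EXPA1, an expansin that loosens the wall, was short with 16.97 and 18.5 TPM in the hairy leaves, against 37.5 and 48.1 TPM in the glabrous leaves. Its C06 copy BnaC06g058020.4DH read 0.315 and 0 TPM in the hairy leaves, against 23.8 and 25.7 TPM in the glabrous leaves. Its A07 copy BnaA07g042650.4DH read 16.7 and 18.5 TPM in the hairy leaves, against 13.7 and 22.3 TPM in the glabrous leaves. The A07 copy of EXPA1 overlapped between the lines. XYL1, an alpha-xylosidase of xyloglucan, was made up with 83.03 and 58.6 TPM in the hairy leaves, against 43.6 and 84.2 TPM in the glabrous leaves. CYCD1;1, a D-type cyclin, summed to 169 and 73.4 TPM in the hairy leaves, against 60.4 and 90.6 TPM in the glabrous leaves, with an overlap, and was made up over all copies. BnaC06g065880.4DH (CYCB2;4, a mitotic cyclin with no A07 member) read 6.43 and 2.63 TPM in the hairy leaves, against 40.9 and 49.9 TPM in the glabrous leaves. Its 6 copies in the table together were made up, with 85.5 and 52.6 TPM in the hairy leaves, against 72.4 and 90.6 TPM in the glabrous leaves. PAN was in excess with 16.7 and 11.8 TPM in the hairy leaves, against 7.11 and 7.56 TPM in the glabrous leaves. CRC, a YABBY regulator of carpel development, was in excess with 14.6 and 13.7 TPM in the hairy leaves, against 8.93 and 4.86 TPM in the glabrous leaves. CLV1, a receptor kinase that limits stem cell number, was made up with 20.3 and 10.2 TPM in the hairy leaves, against 8.29 and 29.1 TPM in the glabrous leaves. CICDH, a cytosolic isocitrate dehydrogenase, was in excess with 151 and 136 TPM in the hairy leaves, against 78.1 and 83.5 TPM in the glabrous leaves. SUC1, a sucrose transporter, was in excess with 34.05 and 25.8 TPM in the hairy leaves, against 19.6 and 17.5 TPM in the glabrous leaves. KAS2, a plastid ketoacyl synthase of fatty acid elongation, was made up with 61.97 and 36.1 TPM in the hairy leaves, against 59.7 and 68.8 TPM in the glabrous leaves. BCA4, a carbonic anhydrase, was made up with 18.1 and 26.2 TPM in the hairy leaves, against 17.95 and 31.3 TPM in the glabrous leaves.

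For 57 of the 529 Arabidopsis matches of expressed C06 members no A07 member had the same match. For 37 of these an A07 gene just before or after the rule had it, and for 6 no gene of the table outside the C06 block did. The C06 member of these with the highest glabrous level matches CDSP32, a thioredoxin-like protein of the chloroplast. BnaC06g065400.4DH read 1.87 and 1.01 TPM in the hairy leaves, against 225 and 216 TPM in the glabrous leaves. The 4 copies in the table together read 203 and 226 TPM in the hairy leaves, against 375 and 359.8 TPM in the glabrous leaves, a short sum. AT1G73230, annotated to the nascent polypeptide-associated complex, which binds new chains at the ribosome, had both C06 copies low in the hairy line. BnaC06g062510.4DH read 0.706 and 0.275 TPM in the hairy leaves, against 276 and 127 TPM in the glabrous leaves. BnaC06g047660.4DH read 0.349 and 0 TPM in the hairy leaves, against 56.9 and 31.1 TPM in the glabrous leaves. Its 4 copies in the table together read 115 and 138 TPM in the hairy leaves, against 496 and 248 TPM in the glabrous leaves, also short. These genes, named after their values were seen, had no overlap between the lines in their sums.

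SKP1 and RPN3B, a proteasome lid subunit, are the 2 genes of the protein turnover list found in the block. They also had no A07 member, but A07 genes just past the rule matched them. For SKP1 this was BnaA07g048230.4DH, given above. For RPN3B it was BnaA07g048242.4DH, with 198 and 171 TPM in the hairy leaves, against 102 and 88.3 TPM in the glabrous leaves. Over all copies SKP1 read 843 and 1064 TPM in the hairy leaves, against 1296 and 839 TPM in the glabrous leaves. RPN3B over all copies read 217 and 181 TPM in the hairy leaves, against 184 and 178 TPM in the glabrous leaves. Both sums were made up. Besides AT5G43620, the matches held by no gene outside the block were AT1G68260, already given as an exception, AT1G75190, RABA6a (AT1G73640), AT1G53340 and AT1G72850. A copy listed with another match, or with none, would not be seen in this way. The RABA6a match BnaC06g063060.4DH, a small GTPase of membrane traffic, read 0 TPM in both hairy leaves, against 7.92 and 10.2 TPM in the glabrous leaves. The AT1G75190 match BnaC06g064510.4DH read 0 and 0.0969 TPM in the hairy leaves, against 16.6 and 12.1 TPM in the glabrous leaves.

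Summed over all members of both regions, 315 of 472 functions were made up (66.7%), 73 short and 48 in excess. Summed over every copy in the table, 374 of 529 were made up (70.7%), 75 short and 47 in excess. Of 564 copies outside both regions tested in the limma fit across all genes, 32 (5.67%) were called higher and 31 (5.50%) lower at an adjusted p under 0.05, beside 5.24 and 4.48% of all 44247 genes tested. Without the A07 genes next to or after the region and the 3 unplaced sequences, 521 were tested, with 27 (5.18%) called higher and 31 (5.95%) lower. The median log2 difference was 0.07 over the 564, 0.04 over the 521 and 0.03 over all genes tested.

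In that fit, 635 of the 2051 C06 members and 658 of the 1264 A07 members had at least 1 TPM in 2 leaves and were tested. The C06 members called lower numbered 554, with 2 called higher, beside 4.48% of all tested genes called lower; the A07 members called higher numbered 87, with 2 called lower, beside 5.24% of all tested genes called higher. Since this contrast drew the regions, nothing is read from these counts. Without hairy leaf 1 or hairy leaf 3 they were 238 and 230 for C06 and 21 and 24 for A07, and without glabrous leaf 1 the A07 count was 43. In the authors' deposited table, at a false discovery rate under 0.05, 485 of 1258 C06 transcripts were lower and 3 higher, and 64 of 1130 A07 transcripts were higher and 3 lower, beside 2.04% lower and 2.0% higher of all transcripts with a value.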

How the data were processed

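Poly-A RNA of 1 young leaf per sample gave paired-end libraries with inserts of 300 ± 50 bp, per the labels' protocols. The submitters' processing notes name cutadapt 1.9. Which aligner, build and annotation were used is not given in the sources used here. Per transcript, the authors deposited TPM for each leaf, the fold change of the hairy line against the glabrous one in log2 and an adjusted p-value (false discovery rate) from a test they do not name; the last 2 served to count calls. Replicate 2 leaves were not analysed here. TPM carry no counts, so depth is unknown and no counting interval is given.

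TPM were summed over the 185771 transcripts to 145279 genes. Members, segments, lists and limits were chosen with earlier results of these data known. Order along a chromosome is that of the identifiers. For all genes with at least 1 TPM in 2 leaves, log2(TPM + 1) was fitted with limma 3.58.1 (R 4.3.3), with a mean-variance trend, robust shrinkage and p-values adjusted by Benjamini-Hochberg; the fit was tested on simulated data. p-values then measure the spread between single leaves. Python 3.11.15 and pandas 2.3.3 were used.

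Genes named by rule are the 3 expressed genes either side of each end and members of the function lists. They include the 6 silent C06 members highest in the glabrous line and the 8 C06 members highest in the hairy line. The 6 A07 members most raised and 3 most lowered are named too. Pair sums named are the 6 lowest, 6 nearest level and 3 highest by ratio, among pairs with a glabrous sum of at least 5 TPM. Others are said to be named after their values were seen. An Arabidopsis match is the one given most often among a gene's transcripts, with ties going to the first in identifier order. Of 97506 matched genes, 1554 have several. The neighbours of the PSRP-3 match, the other C06 exceptions at or above their glabrous level and the copies with no A07 member were also chosen after values were seen. Alternatives were other thresholds, pseudocounts, scalings, filters and windows, leaving out each leaf, a block for the replicate number and, added after seeing the data, a crossed block and pairs within segments. No reference sequence of the files' build was used here, so no sequences are shown.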

Additional observations from a re-analysis of the deposited data

How the results depend on the processing

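With pseudocount 0.1, no low value filter, TMM-like scaling or quantile normalization, the C06 members called lower numbered 526 to 587 and the A07 members called higher 61 to 106, all within 1.5 times of the counts given. Silence under 0.1 TPM was met by 259 C06 members, under 1 TPM by 506, and with expression set at 5 TPM by 226. At 0.5 and 5 TPM in both hairy leaves, 137 and 15 C06 members were expressed there. With limits of 2 in place of 1.5, 86.3% of pair sums and 84.9% of sums over all copies were made up. All members summed per match gave 66.7% and pairs within segments 67.1%, with a C06 share of 0.452%, against 0.45% for all pairs. Windows of 10 and 50 genes inside the C06 edge held 100 and 69.4% silent genes. Leaving out each leaf gave 1413 to 3746 genes called in all, 230 to 482 C06 members lower, 21 to 97 A07 members higher, 458 to 517 silent, 85 to 117 expressed in hairy leaves, 54.3 to 67.7% of pair sums and 57.1 to 67.1% of sums over all copies made up, and a hairy C06 share of 0.259 to 0.60%. The silent and expressed counts can only stay or rise when a leaf is left out, since their limits must hold in every leaf used. The cause of the other shifts was not tested. A fit without a leaf leaves 1 leaf in a line, assumed to vary like the others.

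Same-numbered leaves deviated from their line means in opposite directions (r = -0.41 over 44247 genes). Whether the numbers mark a shared batch cannot be told from 2 leaves per line. With the replicate block, 3538 genes in all, 528 C06 members lower and 58 A07 members higher were called. A crossed replicate block, added after seeing the data, called 6960, 595 and 245. Of 1348 log2 differences of 135 named genes under the alternatives, 65 moved beyond 1 SD, and of 60 pair ratios 2 did. A reversal was counted only for genes called at an adjusted p under 0.05 in the main fit. For pairs it was counted only where the sum was short or in excess. Within these limits 0 genes and 0 pairs reversed. Changes of direction in the other named genes and pairs were not counted. TPM depth is unknown, and 2 leaves per line limit every value.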

Other observations

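The raised A07 level past the last member had a counterpart on sequences that the table does not place on a chromosome. On the sequences named S00025, S00015 and S00007, 302 of 376 genes share an Arabidopsis match with an A07 gene after the last member. Their genes summed to 291 and 252 TPM in the hairy leaves, against 2826 and 3127 TPM in the glabrous leaves, and 114 of the 174 expressed in the glabrous line (65.5%, beside 3.48% of all genes) were silent in the hairy line. By match to the Da-Ae reference assembly, 193 of 218 placed genes (88.5%) lie on its chromosome C6, all 3 sequences following the C06 members in order. These sequences were looked for after the A07 values had been seen. Of 160 pairs with A07 genes after the last member, 108 sums were made up, 20 short and 23 in excess, with a median ratio of 1.02. The unplaced member supplied a median of 0.398% of the sum in the hairy line and 51.1% in the glabrous line.

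Named examples were chosen after their values were seen. BnaS00025g0630.4DH, annotated as a B-type cyclin-dependent kinase of mitosis (AT1G76540), read 0.149 and 0.116 TPM in the hairy leaves, against 47.3 and 31.2 TPM in the glabrous leaves. BnaS00025g0440.4DH, an O-methyltransferase, read 0.209 and 0.109 TPM in the hairy leaves, against 40.8 and 47.7 TPM in the glabrous leaves, and BnaS00007g0060.4DH, a DnaJ-type chaperone, read 0.0502 and 0.117 TPM in the hairy leaves, against 40.6 and 46.5 TPM in the glabrous leaves. On A07, BnaA07g051630.4DH, a match of WRKY40, a defence-related transcription factor, read 263 and 285 TPM in the hairy leaves, against 8.35 and 29.2 TPM in the glabrous leaves, and BnaA07g050760.4DH, a curculin-like lectin, read 88.5 and 148 TPM in the hairy leaves, against 3.01 and 4.75 TPM in the glabrous leaves.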
